A study of Mus musculus with 20 samples.

Results

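The effect of TGFβ1 on each transcript of Hepa1-6 cells was followed from 1 h to 3 h, to find which effects arose, faded or turned between these times. The change of an effect is the treated-minus-untreated difference at 3 h minus the same difference at 1 h, on the log2 scale. The labels alone chose the 8 arrays it rests on, out of 20 in all: 2 arrays each of treated and untreated cells at 1 h and at 3 h. It was tested for all 18193 genes, with the variance estimated over all 20 arrays, and 1166 of them passed the test. Hepa1-6 is an established mouse hepatoma line from the C57L strain, and a single line is the only source of all samples. The cells of every group, controls included, had been washed and kept in medium depleted of growth factors for 4 h before the start. Treated cells then received 1 ng/ml of TGFβ1 and untreated cells received none, with RNA collected 0, 1, 3, 6 and 10 h later in 2 biological replicates per group. Per the labels, the treated sample at 0 h is equivalent to the untreated one.

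TGFβ1 is a secreted cytokine that brings together type I and type II receptor kinases, which phosphorylate SMAD2 and SMAD3. These join SMAD4, enter the nucleus and act on target genes together with other transcription factors, such as AP-1. Among the targets are genes for inhibitors of the pathway itself, and many early targets encode short-lived mRNAs, so a response can pass through a peak while the ligand is still present. In hepatocytes TGFβ is known as a growth inhibitor that can also promote cell death and a mesenchymal gene programme.

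Of the 18193 genes, the effect moved upward in 450 (2.47%) and downward in 716 (3.94%), so that 6.41% were called for the change in either direction (limma, adjusted p under 0.05). Changes of at least 2-fold were called upward in 58 genes and downward in 81. The median change over all genes was -0.004, and the median standard error of a change was 0.18. In all 1166 called genes, the 4 possible treated-minus-untreated array differences at 3 h lay apart from the 4 at 1 h, which was the case in 5055 (27.8%) of all genes. These differences come from the arrays that gave the calls, so the separation largely follows from the calls and adds no support. At 1 h, 348 genes (1.91%) were higher and 59 (0.324%) lower in treated than in untreated cells; at 3 h, 1224 (6.73%) were higher and 1556 (8.55%) lower. The change shares its arrays with both of these comparisons, so their calls serve here only to sort the called changes into patterns. At 0 h, 0 genes were called by limma and 740 (4.07%) had an unadjusted p under 0.05.

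Markers of the labelled cell type lay in part above the array medians. Of the 10 measured hepatocyte markers, 8 were above the array medians of 5.15 to 5.21, with the oncofetal plasma protein gene Afp highest at 12.78. These medians cover every probe set. The median level of the tested genes, each at its brightest probe set, was 6.31, so most genes lay above the array medians. The 33 measured genes of hepatocyte metabolism and cytochrome P450 had a median level of 4.31, under the array medians. Of the markers of other liver cells, 3 of 7 macrophage, 1 of 6 endothelial, 4 of 8 stellate or fibroblast and 4 of 5 cholangiocyte ones were above them. The highest of each were Csf1r (6.63), Kdr (5.36), Dcn (13.42) and Krt7 (10.24). Over the 4 groups at 1 h and 3 h, the mean level of the macrophage markers ran from 5.04 to 5.06, of the endothelial ones from 4.07 to 4.25, of the stellate ones from 5.61 to 5.82 and of the cholangiocyte ones from 7.51 to 7.83. The change was called for 0 macrophage and 0 endothelial markers, for the stellate marker Col1a1 (1.18), for the cholangiocyte marker Sox9 (-0.66) and for the hepatocyte marker Foxa2 (-0.80). The labels give a single cell line as the source, and a marker above the array medians does not show that another cell type was present. What these marker levels mean for the changes was not tested. In RNA from whole cultures, fewer cells with a transcript and less of it in each cell cannot be told apart.

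The called changes fell into 11 patterns, set by whether the effect was called at 1 h and at 3 h. Newly lower genes, not called at 1 h and lower at 3 h, were the largest group at 601 (51.5% of the called changes), followed by 319 newly higher genes (27.4%). A rise at 1 h grew in 97 genes, shrank but was still called in 33, faded to an effect no longer called in 36, and turned into a fall in 20. A fall at 1 h deepened in 13 genes, recovered to an effect not called in 7, lessened in 1 and turned into a rise in 1. The remaining 38 genes were called at neither time. A gene called new at 3 h is one whose effect at 1 h missed the threshold, which does not show that it had no effect at 1 h. Of 128 called members of the gene lists that the naming rule left out, 60 passed the test under every alternative setting and without any 1 array; 34 lost the call when the probe sets of a gene were averaged, and 54 when some array was left out. Members named below beyond the rule were chosen after their values were seen, and a loss of the call is given beside the name.

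**Figure D1:**
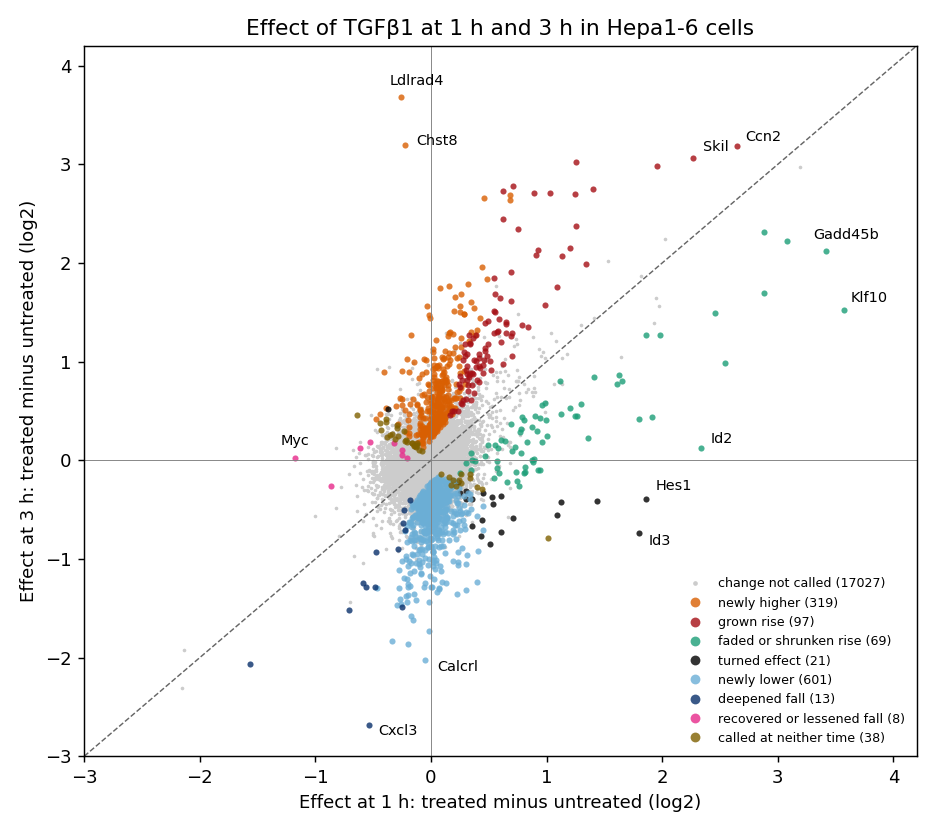
Effect of TGFβ1 (treated minus untreated, log2) at 1 h on the x axis and at 3 h on the y axis, 1 point per gene, with the 1166 called changes coloured by pattern and the other 17027 genes in grey; the dashed line marks equal effects. Newly higher and newly lower genes line up along the vertical axis, while the 69 faded or shrunken rises lie below the line at right and reach down to turned genes such as Id3 and Hes1.

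Promoter sequence was compared between these patterns, since their genes moved together. RefSeq promoter windows (GRCm38.p6, 250 bases before to 50 after a gene's start) were matched by symbol for 14452 of the 18193 genes and for 60 of the 80 genes named by rule. Both strands were searched for the SMAD palindrome GTCTAGAC, the GC element GGCGCC bound by SMADs, the AP-1 site TGACTCA, the cyclic AMP response element TGACGTCA and the E-box CACGTG; none of these motifs contains another. The AP-1 site was found in 8 of 73 grown rises (11%) and in 22 of 257 newly higher genes (8.56%). It was also in 31 of 476 newly lower genes (6.51%) and in 1 of 70 faded, shrunken or turned rises (1.43%). Of all matched genes, 5.33% held it. The GC element was above its share of all matched genes (20.4%) in each pattern, in 26 of those 70 genes (37.1%), 72 of 257 newly higher genes (28%), 20 of 73 grown rises (27.4%) and 110 of 476 newly lower genes (23.1%). Among the 70 genes, 4 (5.71%) held the response element TGACGTCA, against 2.92% of all matched genes. They were Btg2, Dusp1, Epha2 and Maff. The element was also in 7 of 257 newly higher genes (2.72%), Lmcd1 among them, and in 1 of 73 grown rises (1.37%), Cdkn2b. Newly lower genes held it in 8 of 476 (1.68%). The E-box was in 12 of the 70 (17.1%) and in 74 of 476 newly lower genes (15.5%), against 10.2% of all matched genes, 5.84% of newly higher genes and 6.85% of grown rises, and the SMAD palindrome was rare everywhere, in 0.291% of all matched genes. These shares are descriptions without a test, and a match is not a bound site.

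Stretches upstream of the start are shown for genes of the opposite kinetic groups, with every match of the 5 motifs in capitals and all on the minus strand of their chromosome. The Dusp1 stretch holds the GC element, the response element and the E-box; the others hold 1 match each. The Id2 stretch (chr12:25096288-25096342), the Dusp1 stretch (chr17:26508578-26508645) and the Btg2 stretch (chr1:134079284-134079351) belong to rises that faded, shrank or turned. P2ry14 (chr3:59153658-59153724) was newly higher and Olr1 (chr6:129507189-129507255) was a rise that grew; in Olr1 the AP-1 site reads on the opposite strand. P2ry14 has 4 promoter windows in the table, and the one with the match is shown.
Id2: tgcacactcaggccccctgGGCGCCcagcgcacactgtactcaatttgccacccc
Dusp1: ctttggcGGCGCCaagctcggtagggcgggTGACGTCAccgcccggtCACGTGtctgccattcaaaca
Btg2: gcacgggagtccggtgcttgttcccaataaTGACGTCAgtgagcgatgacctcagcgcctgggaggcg
P2ry14: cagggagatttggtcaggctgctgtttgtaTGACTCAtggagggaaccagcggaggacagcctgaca
Olr1: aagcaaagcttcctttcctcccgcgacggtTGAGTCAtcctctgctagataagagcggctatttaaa

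The effects on inhibitors and targets of SMAD signalling moved upward and downward in near-equal numbers. Of the 32 measured genes of this list, the change was called upward in 9, downward in 9 and not called in 14, or 56.2% called against 6.41% of all genes; the list's median change was 0.09 against 0 over all genes. The upward count was 7 without the variance trend, without treated 1 h replicate 1 or without treated 3 h replicate 1. It was 10 with averaged probe sets or without treated 3 h replicate 2, and 9 moved downward in each of these settings. At 1 h, 17 of the 32 genes were higher and 0 lower, and at 3 h, 20 were higher and 1 lower. The members of this and every other list were chosen with earlier results of these data known. The share of a list that was called is therefore a description and no test. It is set beside the share of all genes, which covers genes of every level.

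Skil, which encodes the SMAD corepressor SnoN, grew further. Its log2 values were 10.49 and 10.48 in treated against 8.22 and 8.21 in untreated cells at 1 h, and 11.12 and 11.02 against 8.07 and 7.95 at 3 h. Treated arrays were above untreated ones at both times, and the treated arrays at 3 h were the highest of all. The effect went from 4.82-fold to 8.33-fold, a change of 0.79 ± 0.10 (SE, adjusted p = 1.87e-05). Ccn2, the gene of a matricellular growth factor, was already 6.25-fold higher at 1 h and 9.11-fold at 3 h, a change of 0.55 ± 0.08. Most of that growth lay in the untreated arm: untreated values went from 10.41 and 10.48 to 10.00 and 10.14, a fall of 0.37 (adjusted p = 5.94e-04), while the treated difference of 0.17 did not pass the test (adjusted p = 0.0556).

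Spsb1, an adaptor of a ubiquitin ligase that acts on the TGFβ receptor, went from 1.4 to 2.75 on the log2 scale, a change of 1.35 ± 0.18 (adjusted p = 3.26e-05). Smurf2, a ubiquitin ligase of the pathway, grew from 0.25 to 0.74, and the activin antagonist gene Fstl3 from 1.34 to 1.99 (adjusted p = 0.0126). Tsc22d1 (change 0.38) and the CDK inhibitor gene Cdkn2b (change 0.35) also grew. The call of Fstl3 was lost without treated 1 h replicate 1 (adjusted p = 0.0730) and without treated 3 h replicate 1 (0.0855), and that of Tsc22d1 without the variance trend (0.0595). That of Cdkn2b was lost without treated replicate 1 at 1 h (0.0651) or at 3 h (0.0576), without untreated 1 h replicate 1 (0.0676) and without untreated 3 h replicate 2 (0.0516).

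Ldlrad4, which encodes a membrane protein that restrains SMAD2 and SMAD3 activation at the receptor, had the largest change of all genes. Its values were 3.42 and 3.12 in treated against 3.47 and 3.59 in untreated cells at 1 h, and 7.10 and 6.86 against 3.22 and 3.39 at 3 h. Of these 8 arrays, all but the treated ones at 3 h were far under the array medians. The effect reached 12.8-fold at 3 h, and the change was 3.94 ± 0.22 (adjusted p = 2.36e-10). Lmcd1, a LIM domain cofactor gene, rose from an effect of 0.68 that missed the threshold (adjusted p = 0.0674) to 2.64, with treated arrays above untreated arrays at both times.

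Other inhibitors of the pathway peaked by 1 h among the times measured. Smad7, the inhibitory SMAD that recruits ubiquitin ligases to the receptor, read 10.76 and 10.71 in treated against 8.27 and 8.30 in untreated cells at 1 h. At 3 h its values were 9.80 and 9.68 against 8.26 and 8.25. The untreated arrays kept their level and the treated ones lost close to 1 unit, so that the effect went from 5.48-fold to 2.81-fold (change -0.97 ± 0.10, adjusted p = 1.39e-06). Smad6, the inhibitory SMAD of the BMP branch, changed by -0.60 (1.86 to 1.27), Tgif2 by -0.75 (1.00 to 0.25) and Tgif1 by -0.46 (0.77 to 0.31); both Tgif genes encode homeodomain corepressors of SMADs. Without untreated 3 h replicate 2 the adjusted p of Smad6 was 0.0561.

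The ligand and receptor genes of the TGFβ family changed in smaller number. Of 29 measured, 6 effects moved upward and 3 downward, and 20 were not called (31.0% called against 6.41% of all genes, median change -0.04). Averaging probe sets left 4 upward and 2 downward. The type I receptor genes Tgfbr1 (0.39 at 1 h, 1.00 at 3 h) and Acvr1 (0.27 at 1 h, 1.01 at 3 h) grew, and the BMP type II receptor gene Bmpr2 was newly higher (0.19, 1.28; change 1.09). Smad1, a BMP-responsive SMAD, was newly higher (0.17, 0.53), Smad2, a TGFβ-responsive one, newly lower (-0.07, -0.57), and the rise of the ligand gene Bmp4 faded (0.59, -0.13). Tgfbr3, the coreceptor betaglycan, was newly lower (0.20, -0.72). Averaged over their probe sets, the changes of Tgfbr1 (0.39, adjusted p = 0.177) and Tgfbr3 (-0.53, adjusted p = 0.138) missed the threshold. Tgfbr2 did not pass the test for the change (-0.21, adjusted p = 0.127), nor did Tgfb1 (-0.04), with a 95% interval from -0.54 to 0.45.

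The strongest new and growing rises otherwise lay in genes of varied function. Chst8, a sulfotransferase gene, had values of 4.62 and 5.03 in treated against 5.06 and 5.05 in untreated cells at 1 h, and 7.79 and 7.66 against 4.52 and 4.53 at 3 h. Only the treated arrays at 3 h stood out, and the effect there was 9.18-fold (change 3.42 ± 0.26, adjusted p = 1.55e-08). P2ry14, the receptor for UDP-glucose, changed by 2.20 ± 0.28, and in it the untreated arm fell by 0.92 (adjusted p = 0.0128) while the treated arm rose by 1.28. Cps1, which catalyses the entry step of the urea cycle, changed by 2.00 ± 0.35 to an effect of 2.69. Trbv1, a T cell receptor variable segment by the annotation, changed by 1.67 ± 0.29.

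Ccdc68, which encodes a coiled-coil protein of the centrosome, had the largest growth among rises already called at 1 h. Its treated values went from 7.83 and 7.79 to 9.16 and 9.14, and its untreated values from 7.24 and 7.13 to 6.42 and 6.43. The arms thus moved apart in opposite directions, by 1.34 up and by 0.76 down, and the change was 2.10 ± 0.11 (adjusted p = 1.14e-10). Papss2, the enzyme that makes the sulfate donor used by sulfotransferases, read 6.32 and 6.37 against 5.72 and 5.73 at 1 h and 8.50 and 8.35 against 5.92 and 6.05 at 3 h. Its treated arrays were above its untreated ones at each time, by 1.54-fold and then 5.43-fold (change 1.82 ± 0.17). Pstpip1, a cytoskeletal adaptor gene, changed by 2.07 ± 0.22 and Olr1, the receptor for oxidised LDL, by 1.82 ± 0.30.

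Some of these genes were dim. Of the 450 genes moved upward, 28 (6.22%) had a mean level under the array medians, Ldlrad4, Cps1, Trbv1 and Olr1 among them, and the background level is not known.

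Lists of mesenchymal and matrix genes are given beside the 6.41% of all genes called, without a test. Among 29 extracellular matrix genes, 3 effects moved upward and 1 downward (13.8% called, median 0.14). Col1a1, the α1 chain of type I collagen, was newly higher (0.04 at 1 h, 1.22 at 3 h), Thbs1, a matrix protein that can activate latent TGFβ, was newly higher (0.12, 0.82), and the secreted protease gene Htra1 grew (0.75, 2.34). Of 29 actin cytoskeleton genes, 4 effects moved upward and 1 downward (17.2%), with Pdlim7 at 0.59 and 1.64 and the cardiac troponin gene Tnnt2 at 1.13 and 2.07. The actin count was 3 upward and 0 downward without the variance trend, from the 8 arrays alone, and without treated 1 h replicate 1, treated 3 h replicate 2, untreated 1 h replicate 2 or untreated 3 h replicate 1. Of 25 EMT and junction genes, 2 moved upward and 1 downward (12%), but 1 and 1 without treated 1 h replicate 1 or untreated 3 h replicate 2, and 0 and 1 without treated 1 h replicate 2, treated 3 h replicate 1, untreated 1 h replicate 2 or untreated 3 h replicate 1. The downward one was Snai1, an E-cadherin repressor. Snai1 read 7.10 and 7.23 in treated against 5.34 and 5.17 in untreated cells at 1 h, and 5.47 and 5.63 against 4.92 and 5.31 at 3 h. Its treated arrays were above the untreated ones at both times, but the effect went from 3.77-fold to 1.35-fold and was not called at 3 h (change -1.48 ± 0.26, adjusted p = 6.56e-04). Cdh1, which encodes E-cadherin, was newly higher (-0.31, 0.55; adjusted p = 0.0394) at a level of 2.97, far under the array medians; the call was lost without any 1 of 7 of the 8 arrays (adjusted p = 0.0751 to 0.200).

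**Figure D2:**
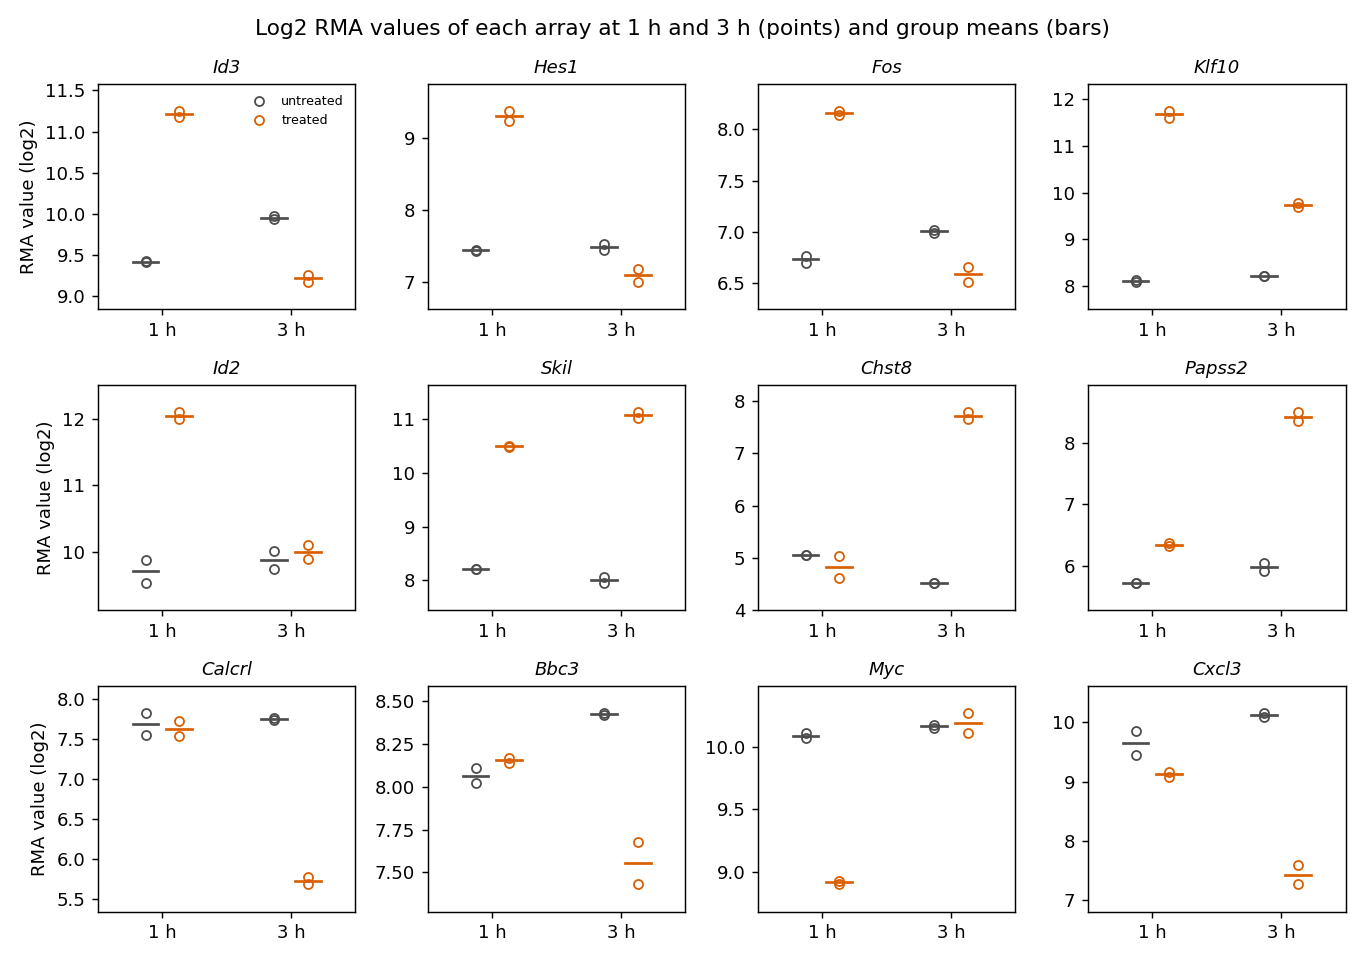
Log2 RMA values of each array (open points) and group means (bars) for 12 genes at 1 h and 3 h, with untreated cells in grey and treated cells in orange; each panel has its own y axis. Treated arrays of Id3, Hes1 and Fos lie above the untreated ones at 1 h and below them at 3 h, those of Myc are lower only at 1 h, and those of Chst8 and Calcrl depart only at 3 h.

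Rises that faded or shrank were led by transcription regulators. Klf10, a zinc finger repressor known as a TGFβ-inducible early gene, read 11.60 and 11.75 in treated against 8.13 and 8.08 in untreated cells at 1 h, and 9.77 and 9.69 against 8.21 and 8.21 at 3 h. Untreated arrays stayed level and treated ones were above them at both times. The effect went from 11.9-fold to 2.87-fold, a change of -2.05 ± 0.10 (adjusted p = 3.51e-11). Id2, which encodes an inhibitor of basic helix-loop-helix factors, read 12.10 and 11.99 against 9.88 and 9.53 at 1 h and 9.89 and 10.11 against 10.01 and 9.75 at 3 h. Groups that were far apart at 1 h overlapped at 3 h (5.05-fold and 1.09-fold; change -2.21 ± 0.14, adjusted p = 9.59e-10). Id1 shrank from 3.47-fold to 1.33-fold (change -1.38 ± 0.07), with the treated arm lower by 1.03 and the untreated arm higher by 0.35.

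The stress sensor genes Gadd45b and Gadd45g, which act on p38 and JNK kinase signalling and on growth arrest, both shrank. Gadd45b went from 10.7-fold to 4.35-fold (change -1.29 ± 0.13, adjusted p = 1.39e-06). Gadd45g went from 5.82-fold to 1.98-fold (change -1.55 ± 0.14, adjusted p = 1.67e-07). Bhlhe40, a repressor linked to the circadian clock, lost less, from 7.39-fold to 4.98-fold (change -0.57). Klf9 (change -1.13), Sertad1 (-1.05), the histone H3K27 demethylase gene Kdm6b (-1.03) and Sowahb (-1.03) faded to effects that were not called at 3 h. In Trib3, a pseudokinase gene of the stress response, the treated arm did not pass the test (-0.06, adjusted p = 0.573) and the untreated arm rose by 0.55, so its rise of 0.70 faded with untreated values close to the treated ones at 3 h.

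Among 15 measured targets of BMP-activated SMADs, the effect moved downward in 6 and upward in 0 (40% called against 6.41% of all genes, median change -0.21). They were Smad7, Smad6, Id1, Id2, Id3 and Atoh8. The 6 that moved were all higher at 1 h, and at 3 h they ranged from 1.49 for Smad7 to -0.74 for Id3. Smad7 belongs to this list and to that of SMAD targets, so the lists are not independent.

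Among 32 immediate early genes, including those for AP-1 and EGR factors, the effect moved downward in 16 and upward in 2. This was 56.2% called against 6.41% of all genes, with a median change of -0.40 against 0. The downward count ran from 13 without treated 3 h replicate 1 or untreated 3 h replicate 1 to 17 with the replicate block. At 1 h, 16 were higher and 3 lower, and at 3 h, 8 were higher and 8 lower. The AP-1 subunit genes Jun (1.66 at 1 h, 0.80 at 3 h) and Junb (3.08, 2.22) shrank but were still called, while Fos and Fosl1 turned. Ier3 (0.91, 0.30) and Csrnp1 (1.61, 0.77) shrank, and Mafk, a small MAF partner gene (0.89, 0.01), and Ier2 (0.47, 0.05) faded. Egr1, the zinc finger factor gene that gives the EGR family its name, was newly lower, at -0.62 at 3 h, but lost the call without any 1 of 3 arrays (adjusted p = 0.0616 to 0.0871). The 2 upward changes were recoveries from a fall at 1 h, in Myc and in Plk2, whose call was lost without any 1 of 6 arrays (adjusted p = 0.0714 to 0.182).

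Rises that turned into falls numbered 20, with a median effect of 0.52 at 1 h and -0.42 at 3 h. Id3 had the largest downward change of all genes. It read 11.18 and 11.25 in treated against 9.42 and 9.41 in untreated cells at 1 h, and 9.17 and 9.26 against 9.97 and 9.93 at 3 h. Treated arrays were above untreated ones at 1 h and below them at 3 h, with no overlap at either time. The effect went from 3.48-fold higher to 1.67-fold lower (change -2.54 ± 0.10, adjusted p = 8.88e-13), with the treated arm down by 2.00 and the untreated arm up by 0.54 (adjusted p = 8.94e-05).

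Hes1, a repressor best known as a Notch target, read 9.23 and 9.37 against 7.43 and 7.45 at 1 h, and 7.0 and 7.18 against 7.44 and 7.53 at 3 h. Its untreated arrays kept their level, and nearly all of the change of -2.26 ± 0.11 lay in the treated arm (-2.21). Fos, an AP-1 subunit, read 8.14 and 8.18 against 6.70 and 6.76 at 1 h, then 6.66 and 6.51 against 7.02 and 6.99 at 3 h. Here too the groups were apart at both times in opposite order (1.43, then -0.42; change -1.85 ± 0.14, adjusted p = 1.35e-08). Hbegf, a ligand of the EGF receptor, went from 2.13-fold higher to 1.47-fold lower (change -1.65 ± 0.06).

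Smaller turns were seen in Fosl1 (0.51 to -0.85), in the antiproliferative gene Btg2 (0.36 to -0.66), in the ERK phosphatase gene Dusp6 (0.53 to -0.37) and in Cdkn1a, the p21 gene. Cdkn1a turned only just: its effect of 0.24 at 1 h had an adjusted p of 0.0416 and its effect of -0.22 at 3 h one of 0.0145, and its untreated arm rose by 0.29 (adjusted p = 0.0110) while the treated arm did not pass the test. Beyond the naming rule, turns were found in the cytokine signal inhibitor gene Socs3 (1.12 to -0.42), in the mRNA decay factor gene Zfp36 (0.61 to -0.73), in Vegfa (0.54 to -0.44) and in Klf3 (0.45 to -0.33). Nabp1, which encodes a single-stranded DNA binding protein, was the single gene that turned the other way, from -0.37 to 0.52 (change 0.90 ± 0.08, adjusted p = 1.45e-07). Its treated values went from 9.19 and 9.17 to 10.18 and 10.14 while its untreated values were 9.56 and 9.55, then 9.57 and 9.70.

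Feedback regulators of MAP kinase signalling split by gene. Of 17 measured, 6 effects moved downward and 2 upward (47.1% called against 6.41% of all genes, median -0.25). Dusp2 shrank from 7.38-fold to 3.23-fold and Dusp1 from 2.46-fold to 1.49-fold. Dusp5, which acts on ERK in the nucleus, was newly lower: treated values went from 7.69 and 7.75 to 6.66 and 6.62 and untreated values from 7.47 and 7.51 to 7.70 and 7.69. Its treated arrays were above the untreated ones at 1 h, by a difference of 0.23 that missed the threshold, and below them at 3 h (change -1.29 ± 0.11, adjusted p = 8.82e-08). Spry1, an inhibitor of receptor tyrosine kinase signalling, was newly lower (0.27, -0.89). Of the 2 upward changes, that of Dusp4 (0.33, 0.88) held throughout, while Dusp10 (0.00, 0.64) lost the call without any 1 of 3 arrays (adjusted p = 0.0652 to 0.117).

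Lists of cytokine and mRNA turnover regulators held downward calls without an upward one. Their shares stand beside the 6.41% of all genes called. Of 21 SOCS and STAT3 target genes, 7 moved downward (33.3%, median -0.20), among them Socs3, the kinase gene Pim3 (-0.15, -1.12) and the fibrinogen gene Fgb (0.05, -0.66); 4 were called without treated 1 h replicate 1. Of 18 mRNA decay regulators, 6 moved downward (33.3%, median -0.09), among them Zfp36, Btg2 and its relative Tob1 (0.10, -0.36). Of 16 Krüppel-like factors, 5 moved downward and 0 upward (31.2%, median -0.22), among them Klf10, Klf9 and Klf3; 3 were called without the variance trend, and 3 without untreated 1 h replicate 2 or untreated 3 h replicate 1.

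The newly lower genes were led by Calcrl, part of the receptors for adrenomedullin and CGRP. It read 7.53 and 7.73 in treated against 7.82 and 7.55 in untreated cells at 1 h, and 5.77 and 5.68 against 7.74 and 7.76 at 3 h. Groups overlapped at 1 h, and at 3 h both treated arrays were about 2 units under the untreated ones (4.07-fold lower; change -1.97 ± 0.14, adjusted p = 1.29e-08). Sgk2, a kinase of the SGK family, changed by -1.71 ± 0.18, the organic anion transporter gene Slco4a1 by -1.67 ± 0.13, the membrane scaffold gene Mpp3 by -1.62 ± 0.27 and Ppargc1b, a coactivator of mitochondrial and lipid genes, by -1.59 ± 0.16. Nat8f2, of a family of close N-acetyltransferase copies, was at -1.63 ± 0.48 (adjusted p = 0.0488), with its level of 4.95 under the array medians; its other probe sets averaged with it gave -0.23 (adjusted p = 0.846), and the call was lost without any 1 of 6 arrays (adjusted p = 0.0589 to 0.198).

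Among 27 measured targets of the tumour suppressor p53, the effect moved downward in 13 and upward in 1. This was 51.9% called against 6.41% of all genes, with a median change of -0.34. Of the 13, 11 were newly lower and 2 turned. The downward count ran from 10 without untreated 1 h replicate 2 to 15 with the replicate block. At 1 h, 3 of the 27 were higher and 1 lower, at 3 h, 1 was higher and 18 lower. Bbc3, which encodes the pro-apoptotic protein PUMA, read 8.17 and 8.14 in treated against 8.02 and 8.11 in untreated cells at 1 h, and 7.43 and 7.68 against 8.42 and 8.43 at 3 h. Treated arrays were slightly above untreated ones at 1 h and below them at 3 h (change -0.96 ± 0.13, adjusted p = 6.52e-05), and the untreated arm rose by 0.36 (adjusted p = 0.0477). Fas, a death receptor gene, changed by -0.88 ± 0.14 with its untreated arm at 0.04, and Pmaip1, the NOXA gene, by -0.78 ± 0.10. Tigar, a regulator of glycolysis (-0.12, -0.63), and the cyclin gene Ccng1 (0.00, -0.36) were newly lower as well. Mdm2, the p53 ubiquitin ligase gene, changed by -0.45, and by -0.25 (adjusted p = 0.234) over its averaged probe sets. The upward one was Plk2 (0.23), whose call was lost without any 1 of 6 arrays (adjusted p = 0.0714 to 0.182) and over its averaged probe sets (0.19, adjusted p = 0.508), leaving 0 upward. In the untreated arm 8 of the 27 rose, Mdm2 among them, whose treated arm did not pass the test.

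The BCL2 family gave 6 downward and 1 upward change among 15 (46.7% called against 6.41% of all genes, median -0.07). There were 3 downward and 0 upward when probe sets were averaged. Genes on either side of the apoptotic balance were among the downward ones: the pro-apoptotic Bbc3, Pmaip1, Bid (-0.63) and Bcl2l11 (-0.71), and the pro-survival Bcl2l1 (-0.37) and Bcl2l2 (-0.36). The upward one was Bcl2, a pro-survival gene (0.63). Averaged over probe sets, Bcl2l1 was at -0.10 (adjusted p = 0.873), Bcl2l2 at -0.11 (0.775) and Bcl2 at 0.31 (0.264). Leaving out 1 array ended the call of Bcl2l1 for 4 arrays (adjusted p = 0.0802 to 0.102), of Bcl2l2 for 3 (0.0556 to 0.0772) and of Bcl2 for 2 (0.0527 without treated 3 h replicate 1 or 0.0756 without untreated 3 h replicate 2). Bcl2l11, the BIM gene, was still 2.42-fold higher at 3 h after 3.94-fold at 1 h; averaged over its probe sets its change was -0.25 (adjusted p = 0.0930).

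The 7 CDK inhibitor genes went separate ways. Cdkn2b grew (0.70, 1.05), Cdkn1b faded (0.57, 0.00), Cdkn1a turned, and Cdkn2c (-0.05, -0.38) and Cdkn2d (-0.08, -0.95) were newly lower. Cdkn1c and Cdkn2a were not called, with 95% intervals of the change from -0.38 to 0.57 and from -0.29 to 0.74. Averaging probe sets took Cdkn1b out of the calls (-0.44, adjusted p = 0.217). Of 34 G1/S and DNA replication genes, 2 moved downward and 0 upward (5.88%), or 1 without treated 1 h replicate 2, treated 3 h replicate 2 or untreated 3 h replicate 1. Of 30 G2/M genes 1 moved downward (3.33%). Of all genes, 6.41% were called.

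Of 28 FOXO targets and insulin signalling genes, 10 moved downward and 2 upward (42.9% called against 6.41% of all genes, median -0.24). The upward ones were the sestrin gene Sesn3 (0.01, 0.56) and Ccng2, a cyclin of growth arrest (0.30, 0.91). Irs1, the insulin receptor substrate, deepened its fall (-0.22, -0.70) and so did Pdk4, a brake on pyruvate oxidation (-0.56, -1.28). The transcription factor gene Foxo3 itself was newly lower (0.28, -0.36).

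Sterol synthesis genes stood apart in the arm that moved. Of 21 measured, the effect moved downward in 10 and upward in 0 (47.6% called against 6.41% of all genes, median -0.29). All 10 were newly lower, and 6 were called without the variance trend. The count was 5 without treated 1 h replicate 1 or untreated 3 h replicate 2, and 6 without treated 3 h replicate 2 or untreated 1 h replicate 2. In untreated cells, 19 of the 21 rose from 1 h to 3 h (median 0.60), against 303 genes (1.67%) of all tested; 133 (0.731%) of all genes fell there. In treated cells 12 of the 21 rose and 0 fell (median 0.26), against 934 (5.13%) and 1116 (6.13%) of all genes. Msmo1, a C4-methyl sterol oxidase, read 10.87 and 10.71 in treated against 11.11 and 10.76 in untreated cells at 1 h, and 10.94 and 10.83 against 11.82 and 11.69 at 3 h. The groups overlapped at 1 h and were apart at 3 h because the untreated arrays were higher (untreated arm 0.81, adjusted p = 2.65e-05; treated arm 0.09, adjusted p = 0.644).

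Pmvk, a kinase of the mevalonate pathway, showed the same arrangement, with untreated arrays at 8.94 and 8.88, then 9.52 and 9.76, and treated ones at 8.94 and 8.90, then 9.08 and 8.98 (change -0.62 ± 0.10, adjusted p = 4.02e-04). Lanosterol synthase, Lss, changed by -0.47 ± 0.09 and the 7-dehydrocholesterol reductase gene Dhcr7 by -0.45 ± 0.09, and their arms rose by 0.23 and 0.41 in treated and by 0.70 and 0.85 in untreated cells. Among the 11 genes not called, Nsdhl and Cyp51 rose in both arms to a like extent, with changes of 0.08 and 0.03. Mvd, a decarboxylase of the mevalonate pathway, had a change of -0.63 that missed the threshold (adjusted p = 0.177).

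**Figure D3:**
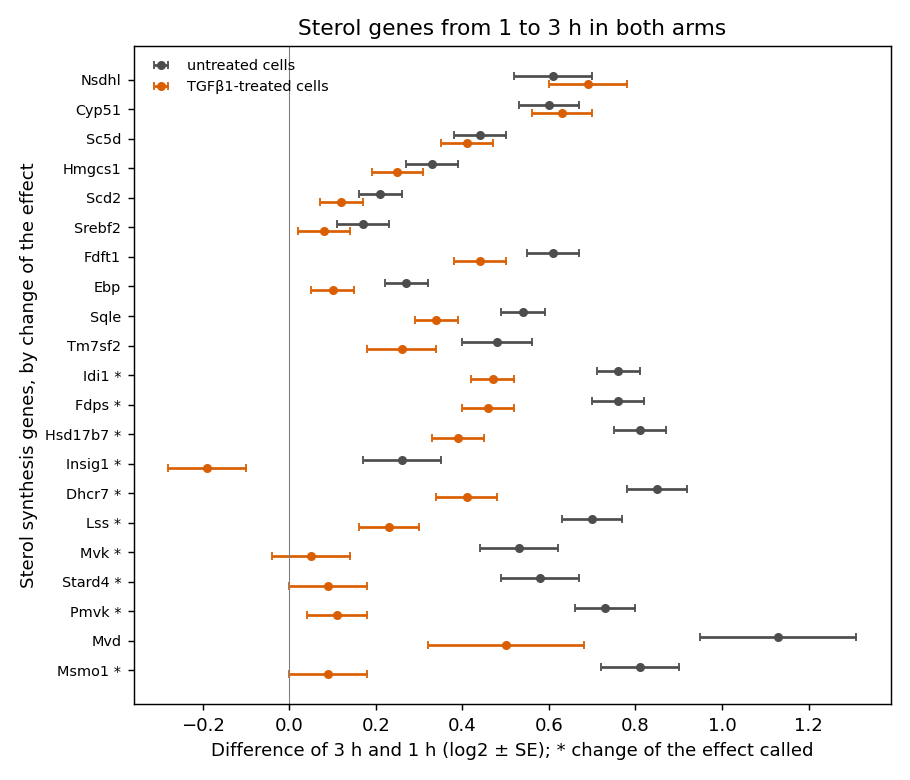
Difference of 3 h and 1 h (log2 ± SE, x axis) in untreated (grey) and treated (orange) cells for the 21 sterol synthesis genes, ordered by the change of the effect; an asterisk marks the 10 called changes. Untreated cells lie right of 0 throughout, and the gap to treated cells widens towards Msmo1 at the bottom.

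Which arm carried the change differed between patterns. Among newly higher genes the treated arm rose in 266 of 319 and the untreated arm fell in 25, and the untreated difference was the larger in 40 (12.5%). Among newly lower genes the treated arm fell in 465 of 601 and the untreated arm rose in 107, and in 64 the untreated arm alone passed the test; its difference was the larger in 142 (23.6%). Of the 20 genes that turned from higher to lower, the treated arm fell in 19 and the untreated arm rose in 8. Genes with a called untreated arm included Ccn2, Trib3, Cdkn1a, Id1, Id3, Ccdc68, P2ry14, Cdkn2b, Bbc3 and 19 of the 21 sterol genes.

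Falls at 1 h were few, and Myc, the growth-promoting transcription factor gene, was the clearest that recovered. It read 8.93 and 8.90 in treated against 10.11 and 10.07 in untreated cells at 1 h, and 10.11 and 10.27 against 10.18 and 10.15 at 3 h. Groups far apart at 1 h overlapped at 3 h (2.26-fold lower, then 1.02-fold; change 1.2 ± 0.08, adjusted p = 2.56e-09), and the untreated arrays kept their level. The DNA ligase gene Lig4 (-0.32, 0.18) and the zinc finger genes Zfp763 and Zfp709 also recovered, and Flrt3, a membrane adhesion gene, lessened its fall (-0.86, -0.26). Zfp709 lost the call without any 1 of 6 arrays (adjusted p = 0.0743 to 0.193), and averaged over its probe sets Zfp763 was at 0.34 (adjusted p = 0.215). Of 32 ribosome biogenesis and MYC target genes, 5 moved downward and 0 upward (15.6% against 6.41% of all genes, median -0.18). The pseudouridine synthase gene Dkc1 (-0.04, -0.50) was called throughout. The median level of this list was 10.27 against 6.31 over all genes, and bright genes were called more often. Of the 1166 called genes, 1055 were among the 9096 above the median level. Other lists were bright too, with median levels of 9.66 for sterol synthesis, 9.25 for p53 targets, 9.71 for integrated stress and 9.04 for hypoxia and glycolysis. For the ribosome list the count was 1 without the variance trend or without treated 3 h replicate 2. It was 2 without treated 1 h replicate 2, untreated 1 h replicate 2 or untreated 3 h replicate 2, and 8 with the replicate block.

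Cxcl3, a neutrophil chemokine gene, had the deepest fall. Its treated values went from 9.16 and 9.08 to 7.27 and 7.59 and its untreated values from 9.86 and 9.45 to 10.15 and 10.08. Treated arrays were below untreated ones at both times, 1.45-fold and then 6.43-fold (change -2.15 ± 0.15, adjusted p = 6.68e-09). The chemokine genes Ccl2 (0.54, 1.84) and Cxcl10 (1.09, 1.76) grew as rises. Over 32 NF-kB targets and chemokines, 2 moved upward and 2 downward (12.5% against 6.41% of all genes, median -0.01). Cavin2, a caveolar coat gene, changed by -1.24 ± 0.08 and the deubiquitinase gene Otud1 by -0.80 ± 0.18 (adjusted p = 0.0638 without untreated 1 h replicate 2).

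Foxa2, a pioneer factor of liver genes, deepened its fall from -0.49 to -1.28 (change -0.80 ± 0.08, adjusted p = 1.74e-06). Its relatives moved from the other side: Foxa1 faded from 0.88 to 0.00 and Foxa3 from 0.78 to 0.08. The plasma protein gene Fgb was newly lower. In all, 4 of 23 hepatocyte identity genes moved downward and 0 upward (17.4% against 6.41% of all genes, median -0.06).

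Many effects present at 1 h did not pass the test for a change. Of the 348 genes higher at 1 h, 162 (46.6%) were not called; their median change was -0.04, and in 156 of them (96.3%) the 95% interval of the change lay within 2-fold either way, against 94.8% of all genes. Of the 59 genes lower at 1 h, 37 were not called. The largest of these effects, named after their values were seen, were the rises of Pdgfb, a PDGF chain (3.19 at 1 h, 2.98 at 3 h; interval of the change -0.52 to 0.09), and of the endothelin gene Edn1 (2.03, 2.24; -0.18 to 0.60), and the falls of the chemokine genes Cxcl5 (-2.15, -2.31; -0.83 to 0.50) and Cxcl2 (-2.13, -1.92; -0.18 to 0.61). Ccn1, a YAP/TEAD target, went from 1.98 to 1.57 and missed the threshold (adjusted p = 0.0685). Among 20 YAP/TEAD targets, 1 moved upward (Ccn2) and 1 downward (Crim1), or 10.0% against 6.41% of all genes. Without untreated 1 h replicate 1 there were 3 downward, and without untreated 3 h replicate 2 there were 2.

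Values at 6 h and 10 h entered neither the estimate of the change nor the effects that set the patterns. Arrays of these times did share in the variance estimate and in the choice of probe set, and so in the calls. From only the 8 arrays at 1 h and 3 h, 355 effects moved upward and 572 downward, against 450 and 716. The shares below are thus not fully independent of the calls. Of all genes, 1414 (7.77%) were higher and 1448 (7.96%) lower at 6 h, and 923 (5.07%) and 739 (4.06%) at 10 h. Of the 319 newly higher genes, 242 (75.9%) were higher at 6 h and 145 (45.5%) at 10 h; of the 97 grown rises, 91 (93.8%) and 67 (69.1%) were. Of the 601 newly lower genes, 349 (58.1%) were lower at 6 h and 171 (28.5%) at 10 h. Shrunken rises were still higher in 16 of 33 at 6 h and in 12 at 10 h, while faded rises were higher in 7 of 36 and lower in 6 at 6 h.

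Single genes followed these shares unevenly. Lmcd1 was at 3.02 at 6 h and P2ry14 at 2.99, above their effects at 3 h, and Skil was still at 1.73 at 10 h, whereas Olr1 was at 1.03 at 6 h and Chst8 at 0.37 at 10 h. Of the 20 genes that turned from higher to lower, 11 were lower and 0 higher at 6 h; Id3 was at -1.4 there and Fos at -0.81, and Dusp6 was at -0.08. Myc, recovered at 3 h, was at 0.48 at 6 h and 0.56 at 10 h. Sgk2 was back at 0.05 by 10 h, whereas Pmvk was at -0.72 and Cxcl3 at -1.20.

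**Figure D4:**
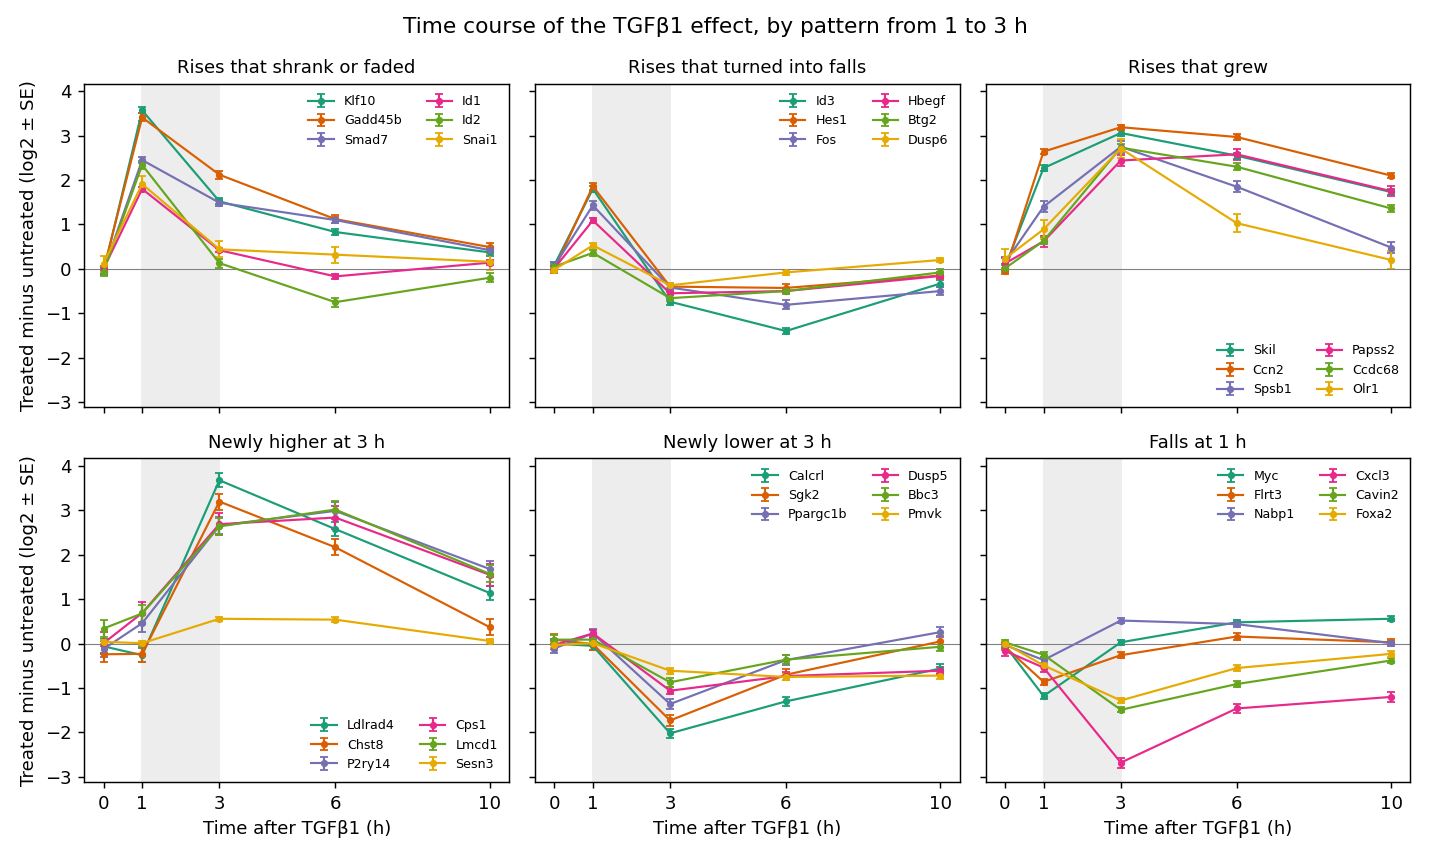
Treated-minus-untreated difference (log2 ± SE, y axis) at 0, 1, 3, 6 and 10 h (x axis) for 36 genes in 6 panels by their pattern from 1 to 3 h, which is shaded. Rises that shrank or turned peak at 1 h, newly higher and growing rises are highest at 3 h or 6 h, and Id3 is at -1.4 at 6 h.

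The remaining lists are given beside the 6.41% of all genes called. The effect moved downward in 8 and upward in 1 of 29 interferon stimulated genes (31.0%). Without treated 1 h replicate 2, untreated 1 h replicate 2 or untreated 3 h replicate 2 it moved downward in 5. There were 5 downward and 1 upward changes among 20 circadian clock genes (30%), with the clock output gene Dbp newly lower (-0.13, -1.04) and the clock kinase gene Csnk1e a growing rise (0.39, 0.94); averaging probe sets left 1 upward and 2 downward clock calls, and without untreated 1 h replicate 1 there were 2 upward. Of 30 integrated stress genes, 7 moved downward (23.3%), of 28 hypoxia and glycolysis genes, 6 (21.4%), among them the hexokinase gene Hk2 (0.01, -1.03), and of 28 growth factor genes, 5 moved downward and 1 upward (21.4%). The downward count of growth factor genes was 3 without treated 3 h replicate 2, untreated 1 h replicate 2 or untreated 3 h replicate 1. The upward one was Pdgfc, a PDGF ligand gene (-0.02, 1.47; change 1.49 ± 0.08, adjusted p = 4.19e-11), and Nrg1, a ligand of ERBB receptors, was newly lower (0.01, -1.28).

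**Figure D5:**
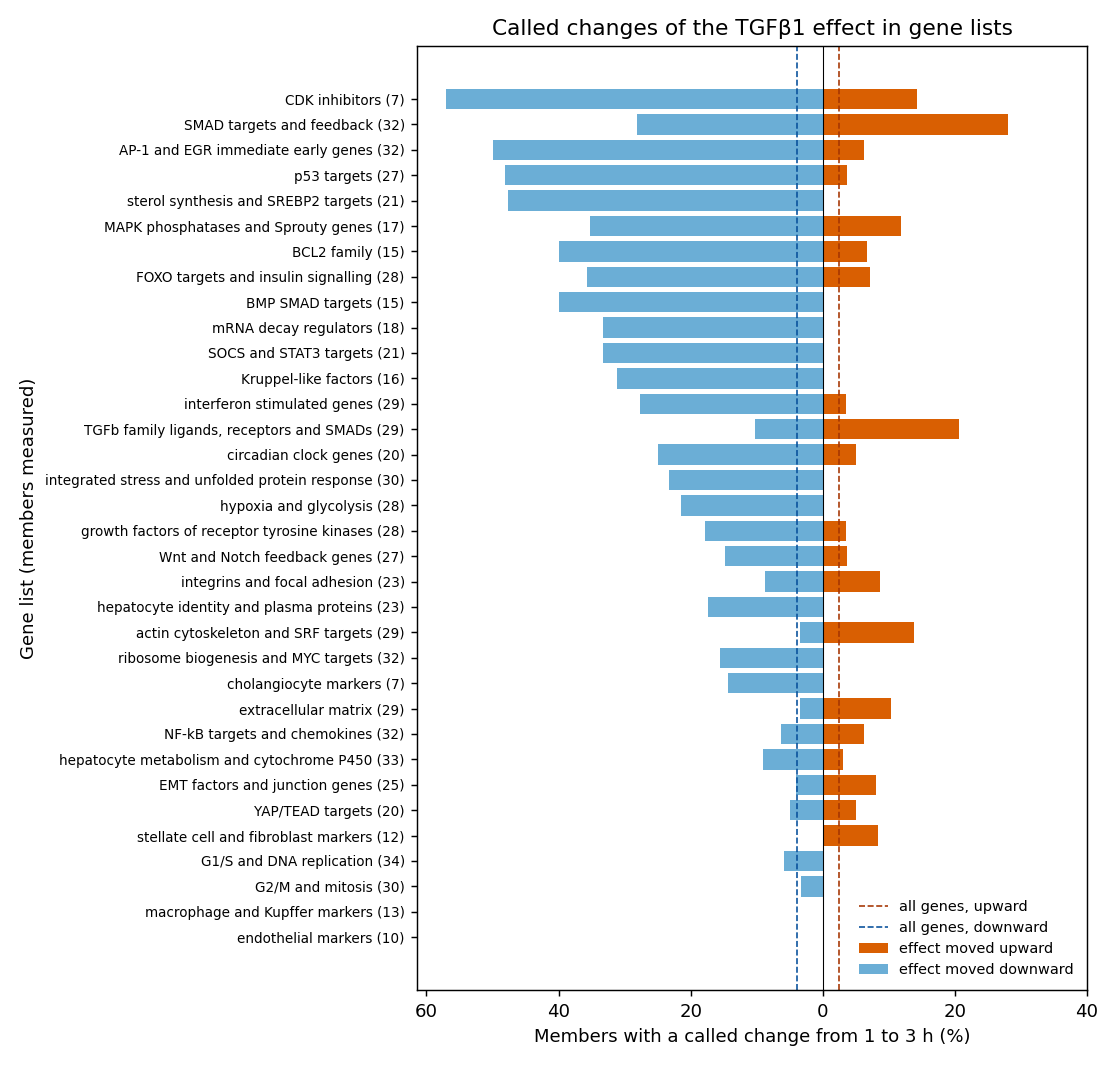
Share of the measured members of each gene list whose change from 1 to 3 h was called (%, x axis), downward to the left in blue and upward to the right in orange, with the number measured in brackets; dashed lines give the shares of all genes, 3.94% downward and 2.47% upward. Downward calls exceed upward ones in most lists, while SMAD targets have 28.1% on either side and actin, matrix and TGFβ family genes lean upward. Lists differ in the level of their members, and the dashed lines cover genes of every level.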

How the data were processed

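The authors deposited 1 log2 value per probe set and array, made with RMA per the submitters' processing notes; its version was not given in the sources used here. The method corrects background, normalizes arrays by quantiles and sums probes, so it compresses dim differences and removes a shift shared by most transcripts. The values ran from 1.44 to 14.71. Of 45037 probe sets, 34945 had 1 gene, 932 several and 9160 none; for each of 18193 genes the probe set brightest on average over all 20 arrays was used. Symbols came from the platform annotation, updated through RefSeq (GRCm38.p6); 48 were not found there.

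Tests used limma 3.58.1 in R 4.3.3: 1 mean per group over 20 arrays (10 residual degrees of freedom), eBayes with a trend, Benjamini-Hochberg adjustment over all genes, threshold 0.05. Errors with ± are SE. The script was tested on simulated data with known changes. It called 22.0% of true log2 changes of 0.5, 68.0% of those of 1 and 98.0% of those of 2, with 3 false calls. Many true changes near 0.5 would thus be missed. Duplicates correlated at 0.9958 to 0.9971, and with 2 arrays per group their number limits the precision; the labels call them biological, and give no batch.

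In each pattern the rule named the 6 (newly higher, newly lower, faded, shrunken) or 4 (others) largest changes whose array differences did not overlap, plus 4 members of each of the 8 lists with the highest called shares and all called SMAD list members; unnamed gene models were left out. The members and the 34 lists were chosen with earlier results of these data known. Figures were drawn with matplotlib 3.10.9.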

Additional observations from a re-analysis of the deposited data

Results flagged for a closer look

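The treated-minus-untreated difference was itself tested between 1 h and 3 h, and this difference between times is what sets the following results apart. It moved upward in 450 genes and downward in 716. It turned sign, with both effects called, in Id3 (-2.54), Hes1 (-2.26), Fos (-1.85) and Hbegf (-1.65) downward and in Nabp1 (0.90) upward, all as log2 changes from 1 h to 3 h. Groups of 2 arrays are too small for a search for single arrays that stand apart.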

How the results depend on the processing

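Across the settings tried, the upward count ran from 344 (no variance trend) to 589 (further quantile normalization) around 450, and the downward count from 514 (no variance trend) to 873 (every probe set tested) around 716; leaving out 1 array gave 304 to 412 and 511 to 775. The counts of newly higher, newly lower, faded or shrunken and turned genes were within 1.5 times of those reported; the other patterns were not recounted. A further quantile normalization moved the upward share of calls from 38.6% to 47.2%. With the replicate block, 487 effects moved upward and 767 downward, and 1163 of the 1166 were still called. Fewer kept the call in the same direction elsewhere: 752 with averaged probe sets, 821 without the variance trend and 892 from the 8 arrays alone. Leaving out 1 array kept 818 to 969 of the 1166. The labels do not say whether same-numbered arrays share a batch. Their deviations correlated at -0.12 to 0.21 over the 4 groups, which cannot exclude a batch that touches part of the genes. Of 80 genes named by rule, 66 passed under every alternative and 0 reversed. The calls of Pnpla1, Map3k21, Tg, Bco1, Zfp709, Zfp763, Nat8f2, Otud1, Smad6, Fstl3, Cdkn2b, Tsc22d1, Cdkn1b and Bcl2l11 were lost in at least 1. Of 128 other called list members, 68 lost the call in at least 1, and 1 reversed: Tln1, the talin gene, with a mean over its probe sets of 0.11 (adjusted p = 0.812). Depth is not defined for arrays; 40 called genes (3.43%) had a mean under the array medians, where background may limit a fold.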

Other observations

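A small group of called changes had an effect called at neither time. There were 38 such genes, with a median effect of -0.14 at 1 h and 0.16 at 3 h. The largest were Bco1, a carotenoid-cleaving enzyme gene (1.01 at 1 h, -0.79 at 3 h), and Map3k21, a kinase gene (-0.64, 0.45), followed by Tg, the thyroglobulin gene (-0.44, 0.37), and Pnpla1, of a lipase family (-0.39, 0.42). All 4 had mean levels under the array medians, from 4.05 to 4.95. Leaving out 1 array ended the call of Bco1 for 4 of the 8 arrays (adjusted p = 0.0609 to 0.108), of Map3k21 for 5 (0.0745 to 0.195), of Tg for 7 (0.0704 to 0.212) and of Pnpla1 for 5 (0.0706 to 0.249).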
